A study of Homo sapiens with 9 samples.

Results

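The comparison set P493-6 cells labelled high Myc against P493-6 cells labelled low Myc, on 4 and 3 arrays of the 9 in the series, and covered the 19775 genes that the arrays measured. P493-6 is an established human B-lymphocyte line, and each of the 7 arrays held biotin-labelled total RNA of that line, read on a single-colour Affymetrix array. The groups differ in the labels by the level of Myc expression alone, and the labels give no agent, dose, time or culture for either group. The line as background carries a MYC gene under a promoter that tetracycline represses, and an Epstein-Barr virus nuclear antigen 2 (EBNA2) that works when estrogen is present. The MYC probes cannot tell that gene from the cell's own. Nothing in the labels says that the replicates were separate cultures, so the p-values measure only how far these arrays spread, and that spread may be technical.

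MYC is a transcription factor that binds DNA as a partner of MAX, preferably at the E-box CACGTG. It is known for raising genes of ribosome production, nucleotide synthesis and mitochondrial biogenesis, and for lowering a wider set of differentiation genes. In B cells it stands at the centre of proliferation after antigen contact, and it is the gene translocated in Burkitt lymphoma. EBNA2 acts through RBPJ, the DNA-binding protein of the Notch pathway, and raises activation genes such as FCER2 in infected B cells.

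Intensities below are the deposited RMA values on a linear scale, given in the order of replicates 1 to 4 of high Myc and 1 to 3 of low Myc. Differences are high Myc minus low Myc on the log2 scale with their standard error, from a limma fit to the 7 arrays, and genes with an adjusted p under 0.05 were called. RMA puts arrays on a like scale, so a difference is relative to the other genes, and fewer cells with a transcript cannot be told apart from less of it per cell. Array medians were 75.3 to 79.6, and the upper quartile was 187.7 on low Myc replicate 3 against 201.6 to 208.8 on the other arrays, so the deposited distributions were not identical. Across genes the arrays correlated at 0.976 to 0.992 within groups and at 0.958 to 0.982 between groups. The B-cell genes CD79A (1383 to 3361 in high Myc, 1482 to 1879 in low Myc) and MS4A1 (2995 to 6947 and 3917 to 4801) were bright in both groups. Of 24 measured T and NK cell markers 1 was called (IL7R), and of 16 myeloid, 9 erythroid and platelet, and 20 fibroblast and epithelial markers none was. Without high Myc replicate 2, NKG7 of the T and NK list and ACTA2 and CDH1 of the fibroblast and epithelial list were called lower, against 2.30% of all genes. CDH1 read 23.8 to 129.6 in high Myc and 147.3 to 506.5 in low Myc (-2.53 ± 0.67, adjusted p = 0.105 with all 7 arrays). At an unadjusted p under 0.05 in either direction those 4 lists held 2, 3, 1 and 3 genes, against 3084 of all 19775 genes. Their summed intensities were 3102 to 4417 in high Myc and 3004 to 3335 in low Myc for T and NK cells, and 785 to 874 and 735 to 874 for myeloid cells. They were 1004 to 1083 and 1018 to 1114 for erythroid cells and platelets, and 2152 to 2661 and 2432 to 3270 for fibroblasts and epithelium. Of 14 measured plasma cell markers none was called by limma. At an unadjusted p under 0.05, 4 were higher and 2 lower, against 9.43% and 6.16% of all genes. The summed intensities of the 14 markers were 13740 to 18310 in high Myc and 9256 to 13650 in low Myc. JCHAIN, the joining chain of secreted IgM and IgA, read 5408, 698, 3527 and 4265 on the high Myc arrays and 37.8, 348 and 166 on the low Myc arrays. Every high Myc array was above every low Myc array, with replicate 2 the lowest of its group. The difference of 4.40 ± 0.90 was not called (adjusted p = 0.0556), and it was 5.06 (adjusted p = 0.012) without high Myc replicate 2. JCHAIN had the largest difference of the 14 plasma cell markers and does not stand for all of them. Of their differences 10 were positive and 4 negative, with a median of 0.24. IRF4 read 1211 to 2687 in high Myc and 2890 to 3207 in low Myc (-0.90 ± 0.26, adjusted p = 0.136). It was called lower without high Myc replicate 2. The summed plasma cell intensities include JCHAIN, and sums without it were not formed. The part of plasma cell genes in the results below was not tested. CD14, a monocyte gene, did not exceed 49.6 on any of the 7 arrays.

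High Myc replicate 2 stood apart from the rest of its group. It correlated at 0.977 to 0.986 with its own group and at 0.974 to 0.982 with the low Myc arrays, while the other high Myc arrays reached 0.974 at most with low Myc. Its MYC intensity was 11326, against 12186 to 15404 on the other high Myc arrays. In a fit without it, 456 genes (2.31%) were higher in high Myc and 455 (2.30%) lower, and at these 911 genes it covered a median of 0.482 of the distance from low Myc to the other high Myc arrays. At the 456 higher genes that share was 0.668, and at the 455 lower genes it was 0.339. It lay nearer the low Myc mean at 68.6% of the lower and 34.2% of the higher genes. Low Myc replicate 2 was the next most displaced array. At the 441 genes called without it, it covered a median of 0.603 of the distance from high Myc to the other low Myc arrays. It lay nearer its own group at 58.3% of them. Its correlations were 0.976 and 0.985 with low Myc and up to 0.982 with high Myc. The median share of every other array was 0.85 to 1.08. Where a call of a named gene turned on high Myc replicate 2, the value without that array is given. That array was singled out from these same values. Adjusted p-values without it therefore describe its influence and are no separate support for a gene.

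Of the 19775 genes, 406 (2.05%) were called: 285 (1.44%) were higher and 121 (0.612%) lower in high Myc. Higher genes thus made up 70.2% of the calls, and repeating the quantile normalization changed the split to 415 higher and 326 lower, or 56.0% higher. At least 2-fold differences were found for 160 higher and 62 lower genes, and at least 8-fold ones for 7 and 7. The median difference over all genes was 0.00 and the median absolute difference 0.11, so most of the transcriptome was alike in relative level. Values of the groups did not overlap for 2515 genes (12.7%), 1594 in the higher and 921 in the lower direction. At an unadjusted p under 0.05, 1865 genes (9.43%) were higher and 1219 (6.16%) lower, and the list counts at that level below are read against those shares.

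**Figure D1:**
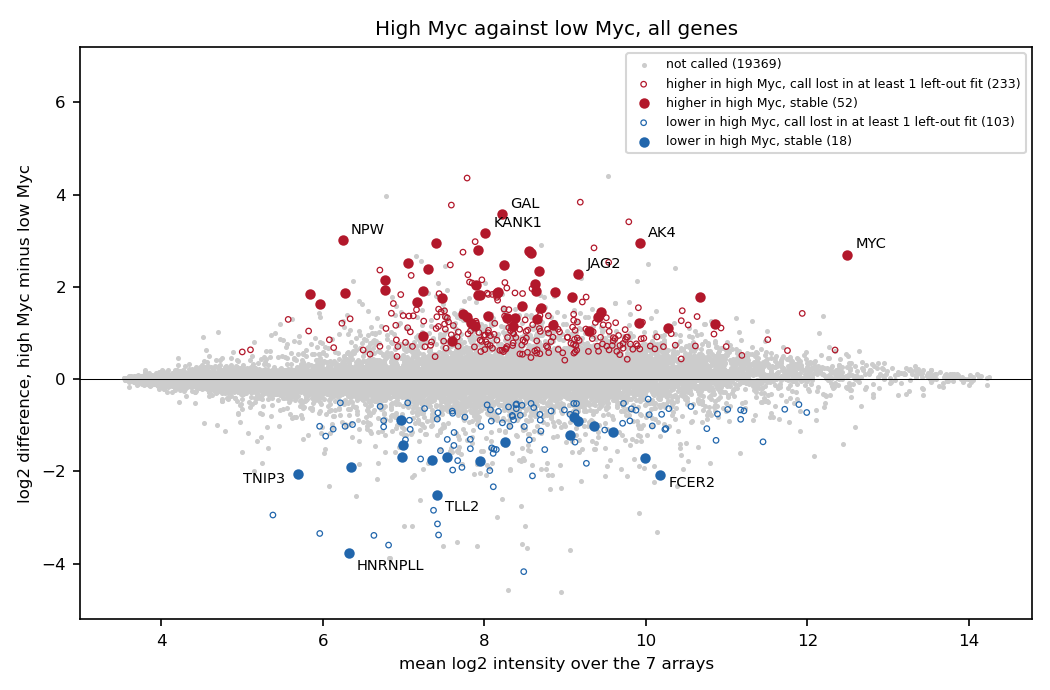
Log2 difference, high Myc minus low Myc, of each of the 19775 genes against its mean log2 intensity over the 7 arrays; filled points are the 52 higher and 18 lower genes called in every fit, open points the other called genes. MYC is the brightest of the filled points, and the filled points lie in both directions over most of the intensity range.

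The number of calls moved with single arrays. Leaving out high Myc replicate 1, 3 or 4 left 92, 59 and 63 higher and 27, 19 and 21 lower genes, and leaving out low Myc replicate 1 left 82 and 20. Without low Myc replicate 3 there were 158 higher and 103 lower genes, and without low Myc replicate 2 there were 337 and 104. Of the 406 calls, 383 were kept without high Myc replicate 2 and 77 without high Myc replicate 3, and none reversed its sign in any of the 7 fits. The account below is therefore built on the 70 genes (0.354%) that were called in the fit to 7 arrays and in each of the 7 fits without 1 array, and whose group values did not overlap. They are called stable genes: 52 were higher in high Myc, by 1.77-fold to 11.9-fold, and 18 were lower, by 1.76-fold to 13.6-fold. Lack of overlap is part of this choice, so where it is stated for a stable gene it is no separate finding. All 70 were also called after repeated quantile normalization, with arrays centred on their median, with a filter on low values, with array weights and in a fit to all 9 arrays, 68 had an adjusted p under 0.01, and 59 were called when the probe sets of a gene were reduced to their median. With the replicate number as a block, 2 of the 70 were called, though those numbers did not pair the arrays. Of the 46 stable genes with several probe sets, 40 had all of them in 1 direction. With calls made among all probe sets, 21 of the 46 had at least 2 probe sets called in the direction of the gene. In the rest at most 1 probe set was called. The naming rule gave 30 stable genes, and the 40 others are named after their values were seen.

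**Figure D2:**
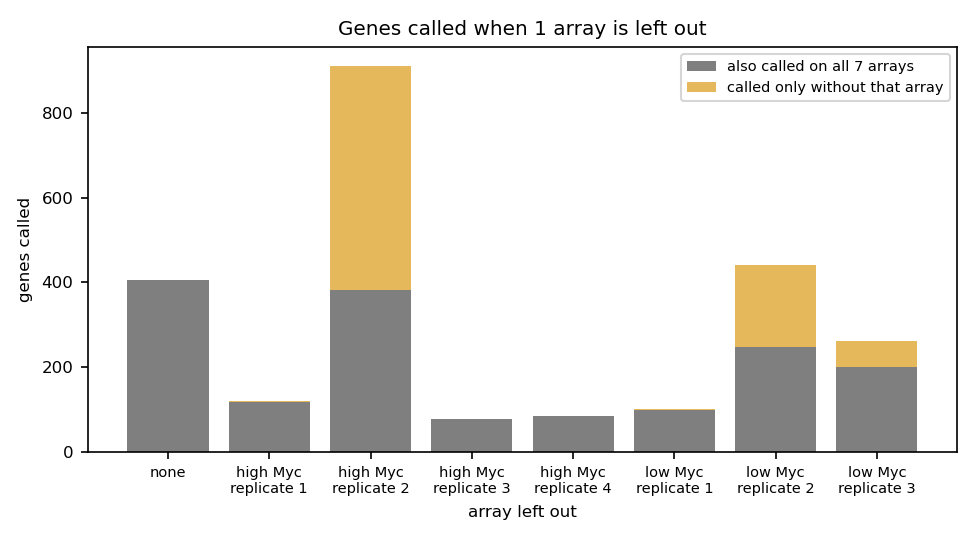
Bars give the number of genes called in the fit to 7 arrays (none left out) and in each fit without the array named on the horizontal axis; grey is the part also called on all 7 arrays and yellow the part called without that array and not on all 7. Without high Myc replicate 2 the total was 911, and without high Myc replicate 3 it was 78.

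MYC itself (Entrez gene 4609) checks the labels. Its intensity was 12755, 11326, 15404 and 12186 on the high Myc arrays and 2126, 2526 and 1443 on the low Myc arrays. Each high Myc array lay several-fold above each low Myc array, and the groups did not overlap. The log2 means were 13.65 ± 0.19 (SD, n = 4) and 10.95 ± 0.41 (SD, n = 3), a difference of 2.70 ± 0.20 or 6.49-fold (adjusted p = 0.00246). The low Myc arrays were thus not without MYC signal. MAX, the partner through which MYC binds DNA, read 2050.5, 1850.0, 2059 and 1708 on the high Myc arrays and 1401, 1517 and 1048 on the low Myc arrays. All high Myc arrays were above the low Myc ones, but the difference of 0.55 ± 0.14 was not called (adjusted p = 0.104).

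Of 12 measured genes of the MYC network, 3 were higher in high Myc (MYC, MXI1 and MLXIP) and none was lower, with a median difference of 0.28. At an unadjusted p under 0.05, 6 were higher and 1 lower, against 9.43% and 6.16% of all genes. MXI1 encodes a MAX partner that competes with MYC and represses transcription. It read 942, 743, 804 and 959 on the high Myc arrays and 129.7, 73.7 and 203 on the low Myc arrays. The high Myc values lay close together and the low Myc values spread over a wider range below them, without overlap. MXI1 was 2.78 ± 0.31 higher (6.87-fold, adjusted p = 0.00725). MLXIP, a glucose-responsive relative, was named after its values were seen: it read 332 to 391 and 164 to 221 and rose by 0.94 ± 0.13 (adjusted p = 0.0146), a call lost without 4 of the 7 arrays. The repressors MNT and MGA, also named after their values were seen, missed the threshold with differences of 0.84 ± 0.16 (adjusted p = 0.0505) and 0.52 ± 0.10 (adjusted p = 0.0505), and were called without high Myc replicate 2 (adjusted p of 0.0248 and 0.0281). MYCL and MXD3 had negative differences of -0.65 ± 0.22 and -0.29 ± 0.13 and were not called (adjusted p = 0.186 and 0.353).

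Of the 52 stable higher genes GAL had the largest difference. GAL encodes galanin, a neuropeptide. Its intensity was 482, 1074, 1340.1 and 788 on the high Myc arrays and 90.4, 57.6 and 71.6 on the low Myc arrays. The high Myc arrays spread over a wide range, and the lowest of them was several times the highest low Myc array. GAL was 3.58 ± 0.34 higher, or 11.9-fold (adjusted p = 0.00537). A further GAL probe set read log2 means of 6.17 and 6.06, a difference of 0.11 ± 0.12. NPW encodes neuropeptide W, a ligand of G-protein-coupled receptors. NPW was read by 1 probe set, so no further probe set checks it. It read 169, 194, 165 and 219 on the high Myc arrays and 22.3, 27 and 20.3 on the low Myc arrays. All high Myc values were clear of the low Myc values, which lay near the bottom of the intensity range. The difference was 3.01 ± 0.14 (adjusted p = 0.000554), and since the low Myc mean was under a log2 of 5 the ratio of 8.06-fold is not exact.

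JAG2 encodes a Notch ligand and was looked at because the study is known for it. Its intensity was 1205, 972, 1115 and 1223 on the high Myc arrays and 233, 300.2 and 178 on the low Myc arrays. The groups did not overlap, and the spread within each was small against the gap. JAG2 was 2.28 ± 0.18 higher, or 4.85-fold (adjusted p = 0.00329), and a further probe set gave 2.19 ± 0.22. Among 41 measured Notch pathway genes, 2 were higher (JAG2 and ADAM17) and 1 was lower (MAML2), and the list's median difference was -0.01. ADAM17, a protease that cleaves Notch receptors, rose by 0.64 ± 0.12 (adjusted p = 0.0498), and MAML2, a Notch coactivator, fell by 1.03 ± 0.19 (adjusted p = 0.0433). Both were named after their values were seen, and each kept its call only in the fit without high Myc replicate 2. Without high Myc replicate 2, 2 Notch pathway genes were higher and 5 lower, against 2.31% and 2.30% of all genes. Among the 5 was DTX4, a Notch modulator, which read 396, 1826, 329.5 and 424 on the high Myc arrays and 2694, 2405 and 2861 on the low Myc arrays. High Myc replicate 2 lay between the other high Myc arrays and low Myc, and the difference of -2.23 ± 0.55 (adjusted p = 0.09) was -2.80 (adjusted p = 0.000212) without it.

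Several stable higher genes encode receptors or signalling proteins at the membrane. ADGRA3, an adhesion receptor of the G-protein-coupled class, read 309.9, 323, 283 and 284 on the high Myc arrays and 84.6, 104 and 78.4 on the low Myc arrays. Its groups were tight and well apart, with a difference of 1.76 ± 0.12 (adjusted p = 0.00176). The Wnt receptor FZD3 (310.3 to 355 against 112 to 151) rose by 1.34 ± 0.12. ZNRF3, a ubiquitin ligase that removes Wnt receptors (120.3 to 150.2 against 29.9 to 42.1), rose by 1.87 ± 0.15. PTPRF, a receptor tyrosine phosphatase, rose by 1.90 ± 0.22, and TGFBR1, a receptor kinase for TGF-beta, by 1.04 ± 0.09. NCR3LG1, the ligand B7-H6 of the NK cell receptor NKp30, was 4.46-fold higher (152 to 265 against 36.6 to 61.3). Adjusted p for these 5 genes ran from 0.00333 for ZNRF3 to 0.00861 for PTPRF, with 0.00388 for FZD3, 0.00362 for TGFBR1 and 0.00641 for NCR3LG1.

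Other stable higher genes encode enzymes and mitochondrial proteins. AK4, a mitochondrial adenylate kinase, had the largest difference of those described here. It read 2090.5, 2276, 2724 and 2296 on the high Myc arrays and 384, 215 and 335 on the low Myc arrays. The high Myc values were close together and each was at least several times any low Myc value. AK4 was 2.95 ± 0.20 higher, or 7.73-fold (adjusted p = 0.00176), and its 4 probe sets were all called higher, by 1.67 to 3.27. PRDX4, a peroxiredoxin of the endoplasmic reticulum, read 2457, 2789, 2606 and 2686 on the high Myc arrays and 1255, 1184 and 1032 on the low Myc arrays. Here too the groups were tight and did not overlap, with a difference of 1.19 ± 0.10 (adjusted p = 0.00362).

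MRPS2, a protein of the small mitochondrial ribosomal subunit, read 1725, 1877, 1682 and 1639.6 on the high Myc arrays and 923, 793 and 699.6 on the low Myc arrays. It was 2.16-fold higher (1.11 ± 0.11, adjusted p = 0.00553), and the groups did not overlap. TOP1MT, the mitochondrial topoisomerase, was 2.9-fold higher (594 to 736 against 176 to 258), although a second, dim probe set gave -0.02 ± 0.08. COQ8A, needed for coenzyme Q synthesis, rose by 1.17 ± 0.12. DNLZ, a partner of the mitochondrial chaperone HSPA9, rose by 0.82 ± 0.10, the smallest difference of the stable higher genes. In the cytosol, GPD1L, related to glycerol-3-phosphate dehydrogenase, rose by 1.78 ± 0.17. QDPR, which regenerates tetrahydrobiopterin, rose by 1.22 ± 0.11, CKB, the brain-type creatine kinase, by 1.59 ± 0.17, and NXN, a thioredoxin-like oxidoreductase, by 2.05 ± 0.21. Adjusted p was 0.00553 for TOP1MT, 0.00553 for COQ8A, 0.0101 for DNLZ, 0.00553 for GPD1L, 0.00537 for QDPR, 0.00703 for CKB and 0.00553 for NXN.

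The E-box CACGTG was searched on both strands of RefSeq promoter windows (GRCh38.p14, 250 bases before to 50 after the start), which were held for 15382 of the 19775 genes and 57 of the 70 stable genes. Of 43 stable higher genes with a window 2 held it (4.65%, against 8.90% of all windows), and of 14 stable lower genes 0. The 2 windows are shown because they are the ones with the MYC and MAX motif among stable genes, AK4 at chr1:65147302-65147601 on the plus strand and PRDX4 at chrX:23667243-23667542 on the plus strand, with the motif in capitals.
AK4: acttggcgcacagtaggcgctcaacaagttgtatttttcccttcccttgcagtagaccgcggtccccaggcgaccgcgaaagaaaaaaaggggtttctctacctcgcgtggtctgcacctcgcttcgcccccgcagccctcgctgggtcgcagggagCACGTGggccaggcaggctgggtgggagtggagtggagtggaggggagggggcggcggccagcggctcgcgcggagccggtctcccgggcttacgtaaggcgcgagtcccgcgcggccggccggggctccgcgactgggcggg
PRDX4: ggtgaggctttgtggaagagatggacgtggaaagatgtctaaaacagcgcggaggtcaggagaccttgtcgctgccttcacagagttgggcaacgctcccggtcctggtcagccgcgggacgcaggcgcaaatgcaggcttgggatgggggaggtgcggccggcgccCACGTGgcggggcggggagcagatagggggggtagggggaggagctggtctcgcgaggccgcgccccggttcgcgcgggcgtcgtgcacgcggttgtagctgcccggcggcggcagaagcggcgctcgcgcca
A match is a description of the letters and says nothing of binding in these cells. Over the 227 called higher genes with a window, 35 held CACGTG (15.4%), and over the 103 called lower genes 9 did (8.74%). The GC box GGGCGG was held by 181 of the 227 higher genes (79.7%), 65 of the 103 lower genes (63.1%) and 58.9% of all windows.

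Of 38 measured genes of integrins, adhesion and the cytoskeleton 1 was higher (ITGA4) and 0 lower, with a median of -0.22 (-0.26 to -0.10 when 1 array was left out) and 26 negative differences. At an unadjusted p under 0.05, 3 were higher and 13 lower, against 9.43% and 6.16% of all genes. ITGA4, the integrin alpha chain of VLA-4, rose by 1.09 ± 0.13 (adjusted p = 0.0101), kept in 6 of the 7 fits, and is named after its values were seen. The stable genes that follow are known for roles at the cytoskeleton and were grouped after their values were seen, so they are no test of it. KANK1, a regulator of actin polymerisation, read 587, 634, 834 and 607 on the high Myc arrays and 106, 66.5 and 56.9 on the low Myc arrays. The gap between the groups was wide and they did not overlap, with a difference of 3.16 ± 0.22 or 8.92-fold (adjusted p = 0.00224). Its other probe sets gave 0.74 ± 0.19 and -0.06 ± 0.09 and were not called. SPATA13, an exchange factor for RAC1 and CDC42, read 444, 364, 479 and 353 on the high Myc arrays and 61.7, 41.7 and 55.5 on the low Myc arrays. The groups were again far apart, at 2.96 ± 0.17 (adjusted p = 0.00112), while its 3 further probe sets were not called and 1 of them gave -0.08.

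ENAH, an actin regulator of the Ena/VASP family, read 784, 1226, 733 and 643 on the high Myc arrays and 178, 136 and 174 on the low Myc arrays. High Myc replicate 2 was the highest array, and the groups did not overlap (2.35 ± 0.22, adjusted p = 0.00537). CSRP2, a LIM-domain protein of actin bundles, was 6.71-fold higher (710.2 to 979 against 95.7 to 194, adjusted p = 0.00418). CLMN, an actin-binding membrane protein, was 5.77-fold higher (199 to 359.5 against 41.1 to 58.5, adjusted p = 0.00388). SYNE2, which ties the nucleus to actin, and BCR, a GTPase regulator, rose by 1.83 ± 0.20 (adjusted p = 0.00711) and 1.15 ± 0.12 (adjusted p = 0.00555). In the other direction VASP, a relative of ENAH, read 488, 668, 533 and 527 on the high Myc arrays and 1231, 1194 and 1223 on the low Myc arrays. Its low Myc arrays were nearly equal and all lay above high Myc. VASP fell by 1.14 ± 0.12 (adjusted p = 0.00553). SSH1, a phosphatase that activates the actin-severing protein cofilin, read 329 to 418 and 794 to 929 and fell by 1.22 ± 0.11 (adjusted p = 0.00537).

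Further stable higher genes had other roles. MAP3K21, a kinase of the mixed-lineage class, was 6.94-fold higher (489 to 639 against 59.5 to 131, adjusted p = 0.00537). SERPINF1, the secreted factor PEDF, was 5.58-fold higher (557 to 778 against 85.8 to 133, adjusted p = 0.00295). PPP2R3B, a regulatory subunit of protein phosphatase 2A, was 5.21-fold higher (277 to 372 against 54.3 to 77.5, adjusted p = 0.00176). TRIM9, a ubiquitin ligase best known from neurons, read 79.5 to 116 against 25.5 to 32.5, and since low Myc was under a mean log2 of 5 its ratio of 3.6-fold is not exact (adjusted p = 0.00388). The 4 showed no overlap between groups. PITX1, a homeobox transcription factor, rose by 1.90 ± 0.19 (adjusted p = 0.00553), and PRR5, a subunit of mTOR complex 2, by 1.88 ± 0.16 (adjusted p = 0.00388). COCH, a secreted protein known from the inner ear, was bright in both groups (2367 to 3009 against 653 to 971) and rose by 1.77 ± 0.15 (adjusted p = 0.00388). GALNT2, which starts O-linked glycosylation, rose by 1.46 ± 0.09 (adjusted p = 0.00176), with high Myc at 972 to 1185 and low Myc at 379 to 399.9.

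The 16 other stable higher genes rose by 1.91-fold (DPY19L1) to 4.17-fold (SCAMP1). SCAMP1, a carrier protein of secretory membranes, read 545 to 833 against 142 to 197 (adjusted p = 0.00455). DNM1, the dynamin that cuts endocytic vesicles, rose by 1.67 ± 0.19 (adjusted p = 0.00924), STS, the steroid sulfatase, by 1.83 ± 0.18 (adjusted p = 0.00553), and STOM, a membrane protein of the stomatin family, by 1.35 ± 0.15 (adjusted p = 0.00734). INPP5A, which removes a phosphate from inositol trisphosphate, rose by 1.32 ± 0.14 (adjusted p = 0.00672), and CHRDL1, a secreted BMP antagonist, by 1.62 ± 0.16 (adjusted p = 0.00553). ZDHHC9 transfers palmitate to proteins such as RAS, RNF149 and KLHL21 belong to ubiquitin ligases, and ZBTB44 is a zinc-finger protein, and they rose by 1.15, 1.41, 1.37 and 1.31. The remaining 6 were KIAA0930, LRRC34, C15orf61, CCDC85C, CAMKV and DPY19L1, with adjusted p of 0.00553, 0.00711, 0.00865, 0.00553, 0.0067 and 0.0101.

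**Figure D3:**
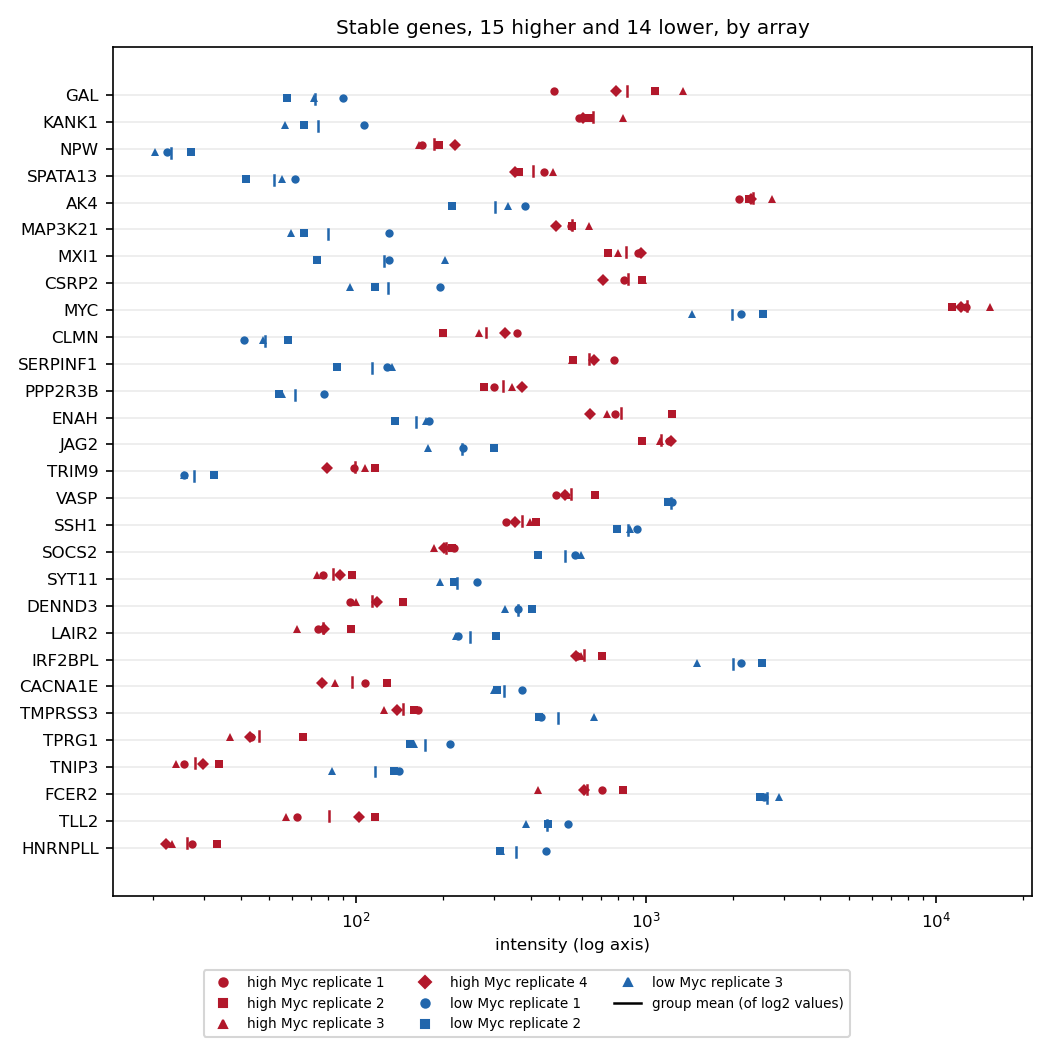
Intensity (log axis) on each of the 7 arrays of the 15 stable higher and 14 stable lower genes given by the rule of size, JAG2 included; red is high Myc, blue low Myc, symbols mark the replicates and short lines the group means of log2 values. Red and blue do not overlap for any gene shown, which the choice of stable genes requires. The high Myc arrays of GAL spread from 482 to 1340.1.

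The 18 stable lower genes held regulators of RNA processing, immune signalling and membrane proteins. HNRNPLL, a splicing factor known for controlling CD45 exons in lymphocytes, had the largest difference. It read 27.3, 33, 23.3 and 22.1 on the high Myc arrays and 453, 315 and 315 on the low Myc arrays. The high Myc arrays lay near the bottom of the intensity range and the low Myc arrays about an order above them. HNRNPLL fell by 3.77 ± 0.19 (adjusted p = 0.000554), and the ratio of 13.6-fold is not exact because high Myc was under a mean log2 of 5. Its 3 further probe sets had differences of -0.57 to -1.36, and 1 of them was called when tested among all probe sets (adjusted p = 0.0331). TNIP3, an inhibitor of NF-kappaB signalling, read 25.5, 33.7, 23.9 and 29.7 on the high Myc arrays and 141, 136 and 82.7 on the low Myc arrays. It too was dim in high Myc, without overlap, and fell by 2.06 ± 0.21 (adjusted p = 0.00553).

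FCER2 encodes CD23, the low-affinity IgE receptor of activated B cells and a known EBNA2 target. Its intensity was 707, 831, 424 and 611 on the high Myc arrays and 2553, 2471 and 2868 on the low Myc arrays. All low Myc arrays were well above all high Myc arrays, of which replicate 2 was the highest. FCER2 fell by 2.07 ± 0.21, or 4.2-fold (adjusted p = 0.0057), and by 2.21 without high Myc replicate 2. SOCS2, a feedback inhibitor of JAK and STAT signalling, read 218, 214, 185 and 200.5 on the high Myc arrays and 567, 424 and 599 on the low Myc arrays. Here the high Myc arrays were nearly equal and the low Myc arrays lay above them (-1.36 ± 0.14, adjusted p = 0.00553). Of the other SOCS2 probe sets, 1 gave -1.67 and a dim one 0.01. IRF2BPL, a transcriptional regulator, read 576 to 708 in high and 1499 to 2507 in low Myc (-1.70 ± 0.18, adjusted p = 0.0057). LAIR2, a secreted collagen-binding receptor, was 3.22-fold lower (62.8 to 96 against 221 to 304, adjusted p = 0.00553).

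The other stable lower genes reached from 5.66-fold (TLL2) to 1.76-fold (GSTM2). TLL2, a secreted metalloprotease of the tolloid family, read 57.4 to 116 in high Myc and 386 to 539 in low Myc (adjusted p = 0.00672). TMPRSS3, a membrane serine protease, fell by 1.77 ± 0.18 (adjusted p = 0.00553). Its further probe sets had larger differences of -3.62 and -3.22, both called when tested among all probe sets. CACNA1E, a voltage-gated calcium channel, fell by 1.74 ± 0.19 (adjusted p = 0.00697), and none of its 5 further probe sets was called. DENND3, an activator of RAB12, fell by 1.68 ± 0.16 (adjusted p = 0.00553), SYT11, a synaptotagmin of vesicle traffic, by 1.42 ± 0.14 (adjusted p = 0.00553), and TPRG1 by 1.91 ± 0.21 (adjusted p = 0.00711). FUT8, which adds core fucose to N-glycans, was 1.88-fold lower (adjusted p = 0.00807), FAM111A, a protease linked to DNA replication, 2.02-fold lower (adjusted p = 0.00553), and PARM1 1.85-fold lower (adjusted p = 0.00785). GSTM2, a glutathione transferase, was read by probes that near-identical GSTM genes can share, so its difference of -0.81 ± 0.09 is uncertain as to the gene.

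The RBPJ site GTGGGAA and an NF-kappaB site (GGGAA, any 3 bases, CC) were searched on both strands of the same windows. Among stable lower genes FCER2 alone held GTGGGAA (1 of 14, 7.14%, against 6.09% of all windows), and HNRNPLL, TNIP3 and VASP held the NF-kappaB site (21.4%, against 7.57%). The windows of the 3 genes with the largest differences among these 4 are shown, with the match in capitals (for HNRNPLL and TNIP3 it lies on the other strand, so the capitals are its reverse complement). FCER2 is at chr19:7702082-7702381, HNRNPLL at chr2:38602879-38603178 and TNIP3 at chr4:121227434-121227733, all on the minus strand of GRCh38.p14.
FCER2: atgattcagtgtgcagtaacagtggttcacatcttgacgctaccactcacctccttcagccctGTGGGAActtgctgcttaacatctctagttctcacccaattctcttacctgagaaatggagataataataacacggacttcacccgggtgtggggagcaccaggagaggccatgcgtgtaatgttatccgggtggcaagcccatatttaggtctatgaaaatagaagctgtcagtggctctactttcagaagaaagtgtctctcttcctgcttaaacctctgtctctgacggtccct
HNRNPLL: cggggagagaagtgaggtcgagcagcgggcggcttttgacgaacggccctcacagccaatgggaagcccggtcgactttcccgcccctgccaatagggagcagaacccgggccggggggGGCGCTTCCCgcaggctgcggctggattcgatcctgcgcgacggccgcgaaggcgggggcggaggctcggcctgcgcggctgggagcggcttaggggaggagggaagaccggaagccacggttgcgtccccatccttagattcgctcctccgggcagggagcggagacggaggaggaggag
TNIP3: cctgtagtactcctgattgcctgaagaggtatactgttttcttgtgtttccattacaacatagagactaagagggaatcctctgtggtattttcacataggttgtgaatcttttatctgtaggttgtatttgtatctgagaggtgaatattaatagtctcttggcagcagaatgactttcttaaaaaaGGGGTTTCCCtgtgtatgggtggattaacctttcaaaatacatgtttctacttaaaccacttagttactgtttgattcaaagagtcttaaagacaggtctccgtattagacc
Over the 103 called lower genes with a window, 4 held GTGGGAA (3.88%) and 11 held the NF-kappaB site (10.7%). All windows held them at 6.09% and 7.57%, and the shares of the stable lower genes rest on 1 and 3 genes. The matches describe the letters of the windows and nothing more.

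Called genes outside the stable set could differ as much or more, and the examples here are named after their values were seen. RGCC, a regulator of the cell cycle, read 1191, 270.3, 970.1 and 1353 on the high Myc arrays and 40.4, 41 and 36.6 on the low Myc arrays. The second high Myc array was the lowest of its group but far above low Myc. RGCC was 4.36 ± 0.52 higher, or 20.5-fold (adjusted p = 0.0101), a call that did not survive leaving out replicate 3 of high Myc or replicate 1 of low Myc, and the difference was 4.89 (adjusted p = 7.65e-05) without high Myc replicate 2. KISS1R, the kisspeptin receptor, read 1648, 1490.3, 2148 and 2096 on the high Myc arrays and 129.9, 364 and 43.9 on the low Myc arrays. Its low Myc arrays spread widely below high Myc (3.84 ± 0.61, adjusted p = 0.0281). ALOX5, the enzyme that starts leukotriene synthesis, was 3.77 ± 0.62 higher (adjusted p = 0.0303). Both calls were kept in 3 of the 7 fits without an array.

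On the lower side TIMP1, an inhibitor of metalloproteases, read 104, 247, 73.3 and 62 on the high Myc arrays and 2598, 2417 and 1048 on the low Myc arrays. The groups were far apart, with low Myc replicate 3 the lowest of its group. TIMP1 fell by 4.17 ± 0.51 (adjusted p = 0.0118), and was not called without replicate 3 of high Myc or replicate 1 of low Myc. CR2, the complement receptor CD21 and an EBNA2 target, read 45, 148, 50.1 and 48.5 on the high Myc arrays and 827, 744 and 464 on the low Myc arrays. The second array was above the other high Myc arrays and still below low Myc. CR2 fell by 3.38 ± 0.43 (adjusted p = 0.0126), kept in 3 of the 7 fits. OTP, a homeobox factor, was 12.1-fold lower (adjusted p = 0.0475), kept only in the fit without high Myc replicate 2 (-4.24, adjusted p = 0.00166). RCAN3, an inhibitor of calcineurin, fell by 3.39 ± 0.42 (adjusted p = 0.0123), kept in 4 of the 7.

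Gene lists are described by how many members were called and by their median difference, beside 1.44% higher and 0.612% lower calls and a median of 0.00 over all genes. Lists of ribosome production and mitochondrial import leaned to high Myc with few calls. Of 48 measured nucleolar ribosome biogenesis genes 0 were called by limma in either direction, and 23 were higher and 0 lower at an unadjusted p under 0.05, against 9.43% and 6.16% of all genes. All 48 had a positive difference, with a median of 0.45 that was 0.26 without low Myc replicate 3 and 0.60 without low Myc replicate 2. With probe sets reduced to their median 46 of the 48 were positive. Group values did not overlap for 11 of the 48 in the higher direction, against 8.06% of all genes. The mean log2 level of the list was 10.16, 10.44, 10.56 and 10.30 in high Myc and 9.95, 10.29 and 9.55 in low Myc. Low Myc replicate 2 thus lay within the range of high Myc, and without it 2 genes were called, against 1.70% of all genes higher.

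Values of named nucleolar genes show that overlap, and all are named after their values were seen. GAR1, a protein of pseudouridylation complexes, read 1220.3, 1598, 1858 and 1435 on the high Myc arrays and 889.9, 1286 and 603 on the low Myc arrays. The second low Myc array exceeded the lowest high Myc array, and the difference of 0.77 ± 0.25 was not called (adjusted p = 0.178). NLE1, an assembly factor of the large subunit, read 715, 886, 819 and 849 on the high Myc arrays and 577, 573 and 353 on the low Myc arrays and had no overlap (0.74 ± 0.18, adjusted p = 0.0944). NPM1, the abundant nucleolar chaperone, differed by 0.15 ± 0.09 (adjusted p = 0.537). Of 33 RNA polymerase I and III genes 1 was higher, with a list median of 0.38 (0.22 without low Myc replicate 3): POLR3B, a core subunit of RNA polymerase III, rose by 0.58 ± 0.10 (adjusted p = 0.0395), kept only in the fit without high Myc replicate 2, and its difference turned to -0.04 with the median of its probe sets. Of 39 cytosolic ribosomal proteins 0 were called and 5 were higher at an unadjusted p under 0.05 (9.43% of all genes), with a median of 0.10. Group values of 19 did not overlap in the higher direction, against 8.06% of all genes. Differences of 36 of the 39 were positive, and after repeated quantile normalization 31 were, with a median of 0.04. Without low Myc replicate 3 the median was 0.07.

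Of 34 mitochondrial import and chaperone genes 3 were higher, with a median of 0.38 (0.19 without low Myc replicate 3), and all 34 differences were positive. After repeated quantile normalization 31 were positive and 10 were called higher, against 415 of all 19775 genes. TOMM20, a receptor of the outer-membrane import channel, read 2539, 2286, 2438 and 2265 on the high Myc arrays and 920.3, 1426 and 610.1 on the low Myc arrays. No overlap was seen, although low Myc replicate 2 was clearly above the other low Myc arrays (1.36 ± 0.25, adjusted p = 0.0429). TOMM5, a small subunit of the same channel, was bright and rose by 0.63 ± 0.10 (adjusted p = 0.0254). TWNK, the mitochondrial DNA helicase, rose by 0.91 ± 0.17 (adjusted p = 0.0417). TOMM20 and TOMM5 were called in 3 of the 7 fits without an array and TWNK in 2. Without low Myc replicate 2, 9 genes of the list were higher, against 1.70% of all genes, and without high Myc replicate 1, 3 or 4 none was. Of 65 mitochondrial ribosomal proteins MRPS2 was called, and the list's median was 0.24 (0.11 without low Myc replicate 3). Without low Myc replicate 2, 5 of them were called higher, against 1.70% of all genes.

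In nucleotide synthesis 2 of 31 genes were higher (AK4 and IMPDH1), with a median of 0.33 (0.11 without low Myc replicate 3). IMPDH1, an enzyme of guanine nucleotide synthesis, rose by 0.91 ± 0.15 (adjusted p = 0.0297), kept in 3 of the 7 fits. GLDC, the glycine cleavage decarboxylase, was the called gene of 20 in serine and one-carbon metabolism (2289.8, 1957, 2171 and 2299 on the high Myc arrays and 945, 547 and 909 on the low Myc arrays). Its groups did not overlap, and it rose by 1.48 ± 0.19 (adjusted p = 0.0133). The CACGTG motif was held by 18 of 42 nucleolar genes with a window (42.9%) and by 7 of 29 mitochondrial import genes (24.1%), against 8.90% of all windows.

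Lists of proliferation were close to the median of all genes. Of 49 DNA replication genes 0 were called by limma (3 higher and 4 lower at an unadjusted p under 0.05, against 9.43% and 6.16% of all genes), with a median of 0.06 that turned to -0.03 after repeated quantile normalization and to -0.11 without low Myc replicate 3. Of 49 mitosis genes 0 were called (3 and 4 at an unadjusted p under 0.05), with a median of -0.02. In oxidative phosphorylation 0 of 51 genes were called (5 and 1), with a median of 0.09 that was -0.01 without low Myc replicate 3, and in glycolysis 0 of 24 (3 and 2), with a median of 0.02 that turned to -0.02 after repeated quantile normalization.

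**Figure D4:**
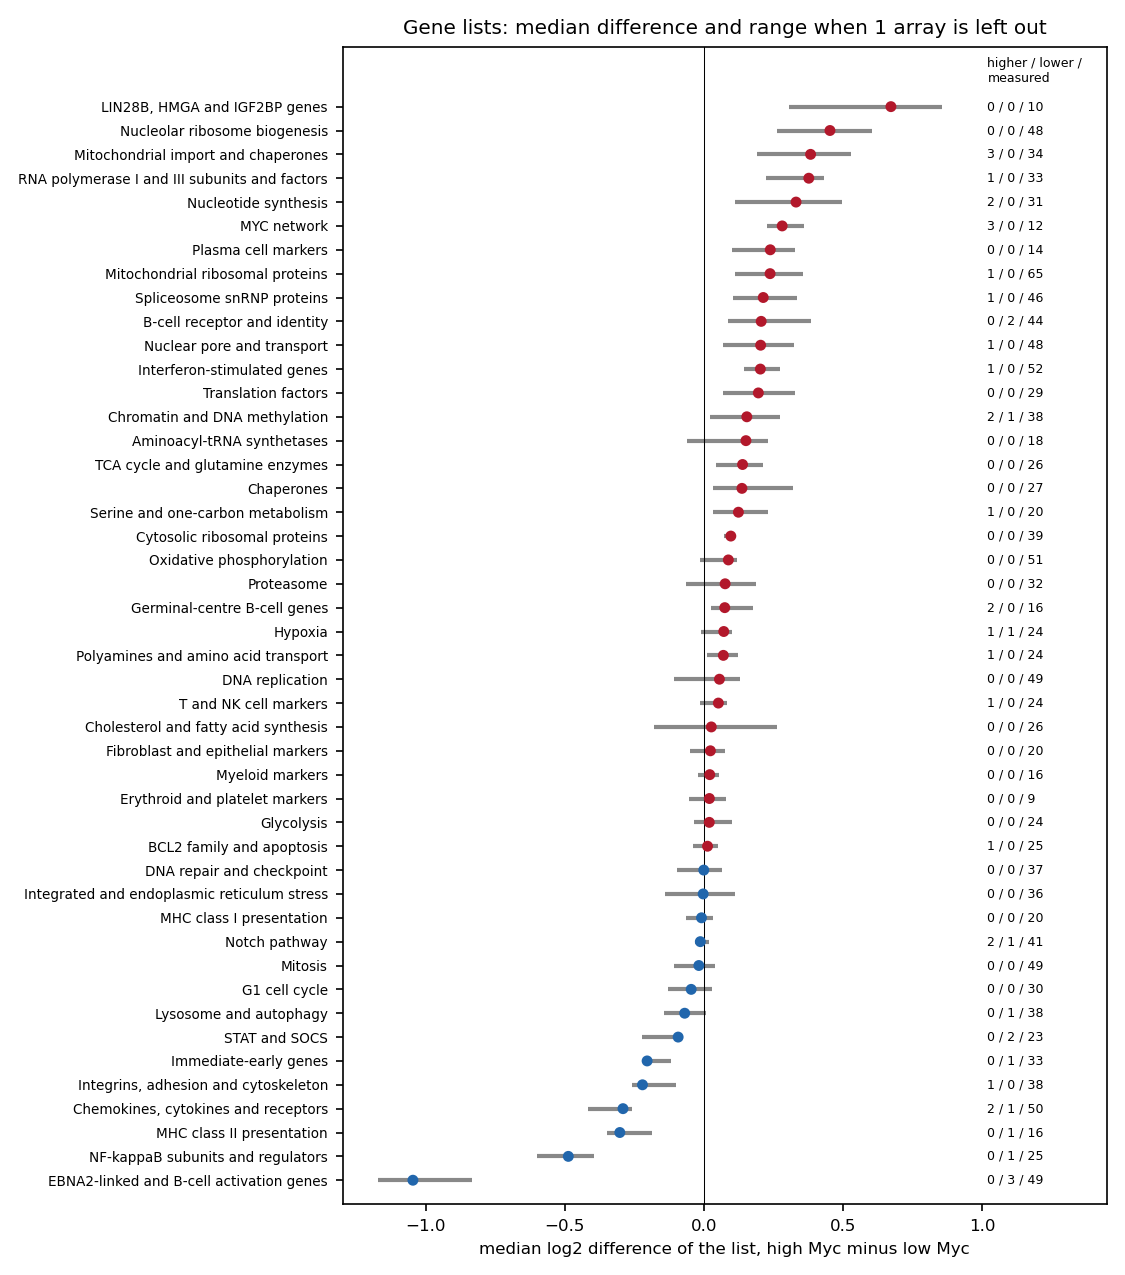
Median log2 difference, high Myc minus low Myc, of each of 46 gene lists (point) and its range over the 7 fits without 1 array (grey line); the figures at the right give the genes called higher, called lower and measured. The nucleolar list lies at 0.45 and the EBNA2-linked list at -1.05, with no fit on the other side of 0 for either.

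EBNA2-linked and B-cell activation genes had the lowest median of the 46 lists. Of 49 measured genes 3 were lower (FCER2, CR2 and TNF) and none higher, 42 had a negative difference, and the median was -1.05. At an unadjusted p under 0.05, 34 were lower and 1 was higher, against 6.16% and 9.43% of all genes. Group values did not overlap for 24 in the lower direction, against 4.66% of all genes. Many of its genes answer to B-cell activation of any kind and not to EBNA2 alone. Its mean log2 level was 8.01, 9.13, 8.43 and 8.05 in high Myc and 9.69, 9.55 and 9.48 in low Myc. Every high Myc array lay below every low Myc array, with replicate 2 the nearest to low Myc. Without that array the median was -1.17, 27 members were lower, against 2.30% of all genes, and 1 was higher, against 2.31%. Leaving out any other array left 1 to 3 lower. With all 7 arrays, 8 were lower after repeated quantile normalization and 11 with array weights, against 326 and 460 of all 19775 genes. Replicate 2 was the highest high Myc array for 34 of the 49 genes (69.4%), against 23.2% of all genes.

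The genes shown next are all named after their values were seen. For CCR7, CD86, SLAMF1, TNFSF4, ADAMDEC1 and IL1R2 replicate 2 was the highest high Myc array. For CCR7, TNFSF4 and ADAMDEC1 it exceeded the lowest low Myc array. CCR7, the chemokine receptor that guides B cells to lymph nodes, read 97.4, 3494, 435 and 214 on the high Myc arrays and 4766, 3144 and 4887 on the low Myc arrays. On the second array it lay within the low Myc range, with the other high Myc arrays well below it. The difference was -3.31 ± 1.07 and not called (adjusted p = 0.168), and it was -4.33 (adjusted p = 0.00561) without that array. CD86, a costimulatory ligand for T cells, read 349, 1752, 407 and 413 on the high Myc arrays and 2346, 2178 and 1961 on the low Myc arrays. Replicate 2 again was near low Myc (-1.93 ± 0.53, adjusted p = 0.114), and without it the difference was -2.47 (adjusted p = 0.000212). SLAMF1, a receptor on activated lymphocytes, read 116, 566, 123 and 71.2 on the high Myc arrays and 1125, 986 and 1032 on the low Myc arrays. Its replicate 2 lay between the groups, and the difference went from -2.76 ± 0.62 (adjusted p = 0.072) to -3.38 (adjusted p = 0.000649) without it.

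TNFSF4, the OX40 ligand, read 52.9, 903, 87.2 and 53.1 on the high Myc arrays and 1967, 702 and 2208 on the low Myc arrays. Here replicate 2 exceeded the lowest low Myc array (-3.57, adjusted p = 0.12), and without it the difference was -4.53 (adjusted p = 0.00298). ADAMDEC1, a secreted protease of immune cells, read 17, 369, 16.2 and 15.9 on the high Myc arrays and 635, 294 and 774 on the low Myc arrays. Without replicate 2 it differed by -5.00 (adjusted p = 0.000789), against -3.88 ± 1.11 (adjusted p = 0.127) with it. IL1R2, the decoy receptor of interleukin 1 from the cytokine list, read 50.2, 1434, 62.2 and 56.6 on the high Myc arrays and 3605, 2075 and 3849 on the low Myc arrays, and the difference of -4.60 ± 1.13 (adjusted p = 0.0899) was -5.77 (adjusted p = 0.000191) without replicate 2. TNF itself was lower on every high Myc array (120.5 to 135 against 175 to 223, -0.64 ± 0.11, adjusted p = 0.0317). LTB, lymphotoxin beta, went the other way, with 1081, 261, 1482 and 952 on the high Myc arrays and 134, 457 and 192 on the low Myc arrays. Its replicate 2 was within the low Myc range, and the difference of 1.81 ± 0.64 was not called (adjusted p = 0.21), while it was 2.34 (adjusted p = 0.0302) without that array. What sets replicate 2 apart was not tested.

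**Figure D5:**
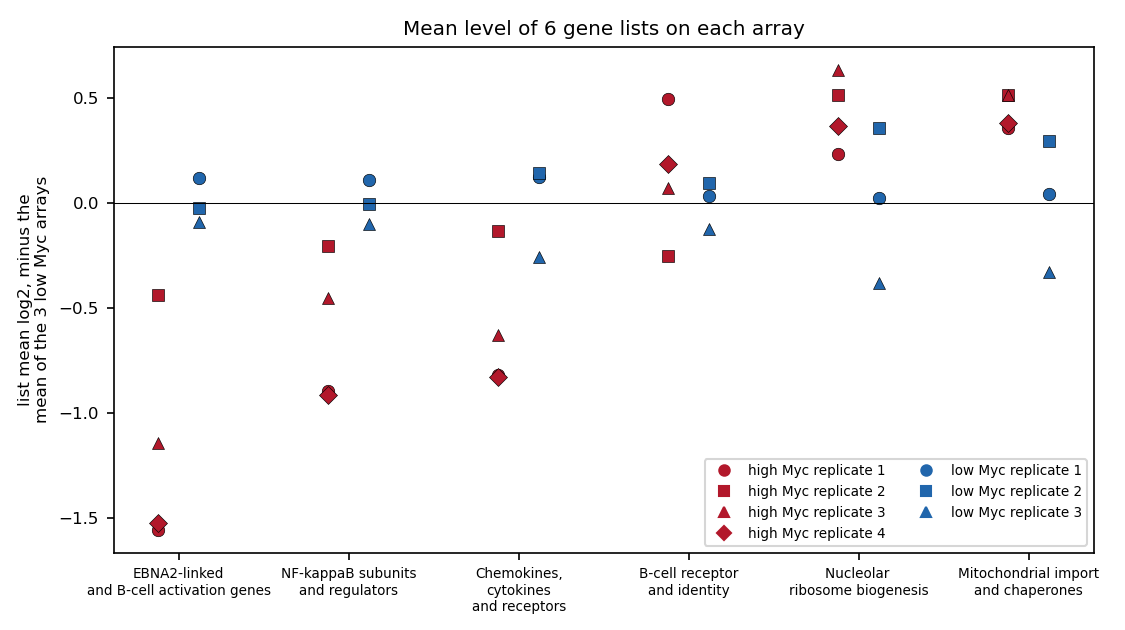
Mean log2 level of 6 gene lists on each array, minus the mean of the 3 low Myc arrays; red is high Myc, blue low Myc, and symbols mark the replicates. In the EBNA2-linked list all high Myc arrays lie below low Myc with replicate 2 nearest to it, and in the nucleolar list low Myc replicate 2 lies within the high Myc range.

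Genes of NF-kappaB signalling followed the same order of arrays. Of 25 measured genes 1 was lower (REL) and none higher, the median was -0.49, 14 were lower at an unadjusted p under 0.05 (6.16% of all genes), and 10 were called lower without high Myc replicate 2 (2.30% of all genes). The list's mean log2 level was 8.85, 9.54, 9.29 and 8.83 in high Myc and 9.86, 9.74 and 9.65 in low Myc. REL, the subunit c-Rel, read 738, 968, 756 and 762 on the high Myc arrays and 1704, 1407 and 1762 on the low Myc arrays. All low Myc arrays were clear of high Myc (-1.01 ± 0.13, adjusted p = 0.0133). NFKBIA, which holds NF-kappaB in the cytoplasm, read 1909, 4172, 3270.4 and 1929.8 on the high Myc arrays and 5310.4, 4471 and 5362 on the low Myc arrays and was not called (-0.92 ± 0.28, adjusted p = 0.153) unless high Myc replicate 2 was left out (-1.13, adjusted p = 0.0368). REL was called in 3 of the 7 fits without an array. The lists of NF-kappaB and EBNA2-linked genes share members such as NFKBIA and TRAF1, so their counts are not independent. The NF-kappaB site was held by 5 of 21 NF-kappaB genes with a window (23.8%) and 6 of 37 EBNA2-linked genes (16.2%), against 7.57% of all windows, and GTGGGAA by 5 of the 37 (13.5%), against 6.09%.

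Cytokine receptors and their signalling held genes called in either direction, and leaned to lower in high Myc. Of 50 chemokine, cytokine and receptor genes 2 were higher and 1 was lower, with a median of -0.29. At an unadjusted p under 0.05, 5 were higher and 17 lower, against 9.43% and 6.16% of all genes. Without high Myc replicate 2 there were 3 higher and 11 lower, against 2.31% and 2.30% of all genes. IL7R, the interleukin 7 receptor, read 1205, 447, 634 and 667 on the high Myc arrays and 159, 199.5 and 175 on the low Myc arrays. Its groups did not overlap (1.96 ± 0.30, adjusted p = 0.0248). IL13RA1, a receptor chain for interleukins 4 and 13, rose by 1.21 ± 0.18 (adjusted p = 0.0248). IL2RG, the common gamma chain, read 1562 to 1838 in high and 2602 to 2748 in low Myc and fell by 0.66 ± 0.09 (adjusted p = 0.0142). Of 23 STAT and SOCS genes 2 were lower, SOCS2 and STAT5A, and at an unadjusted p under 0.05, 1 was higher and 8 were lower. STAT5A, a factor that cytokine receptors activate, fell by 0.88 ± 0.16 (adjusted p = 0.04), kept only in the fit without high Myc replicate 2 (-1.01, adjusted p = 0.00724). In that fit 7 genes of the list were lower, against 2.30% of all genes. IL7R, IL13RA1 and IL2RG were each called in 3 of the 7. Apart from SOCS2 these genes are named after their values were seen.

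B-cell identity genes differed in both directions. Of 44 B-cell receptor and identity genes 2 were lower (CR2 and BANK1) and 0 higher, with a median of 0.21. At an unadjusted p under 0.05, 12 were higher and 11 lower, against 9.43% and 6.16% of all genes. The median was 0.39 without high Myc replicate 2 and 0.09 without low Myc replicate 3. BANK1, a scaffold of B-cell receptor signalling, fell by 1.09 ± 0.18 (adjusted p = 0.0302), kept in 3 of the 7 fits. CD22, an inhibitory coreceptor, read 1466, 1721, 1118 and 1291 on the high Myc arrays and 2716, 2335 and 2062 on the low Myc arrays. No overlap was seen, but the difference of -0.77 ± 0.16 was not called (adjusted p = 0.0609) unless high Myc replicate 2 was left out (-0.88, adjusted p = 0.0229). VPREB3, a protein of B-cell precursors, read 746, 149, 556 and 853 on the high Myc arrays and 77.2, 99.3 and 186 on the low Myc arrays. High Myc replicate 2 lay within the low Myc range (2.09 ± 0.61, adjusted p = 0.133). Without that array the difference was 2.65 (adjusted p = 0.00701), and 8 genes of the list were higher and 5 lower, against 2.31% and 2.30% of all genes.

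Of 16 germinal-centre genes 2 were higher: CD27, a receptor of the TNF receptor family, rose by 1.46 ± 0.24 (adjusted p = 0.0295), and BCL7A, a chromatin-remodelling subunit, by 1.18 ± 0.18 (adjusted p = 0.0254), each kept only in the fit without high Myc replicate 2 (1.68 and 1.34, adjusted p of 0.00123 and 0.00121). Of 16 MHC class II genes 1 was lower, HLA-DOA, which restrains peptide loading (401 to 476 against 648 to 868, -0.76 ± 0.13, adjusted p = 0.0303). The further HLA-DOA probe sets gave -0.08, 0.04, -0.05 and -0.02 and were not called. Of 52 interferon-stimulated genes 1 was higher, the exonuclease ISG20 (1.84 ± 0.34, adjusted p = 0.0417), with a median of 0.20. Of 33 immediate-early genes 1 was lower, IER2 (-0.59 ± 0.10, adjusted p = 0.0337), with a median of -0.20. Of 38 chromatin and DNA methylation genes 2 were higher and 1 was lower, with a median of 0.15 that was 0.02 without low Myc replicate 3. ASF1B, a histone chaperone, fell by 0.64 ± 0.12 (adjusted p = 0.0417). DNMT3B, a DNA methyltransferase, and SMYD2, a lysine methyltransferase, rose by 0.82 ± 0.14 and 0.78 ± 0.10 (adjusted p = 0.0302 and 0.0123), though SMYD2 gave -0.02 with the median of its probe sets. The calls of ISG20, DNMT3B and ASF1B were kept only in the fit without high Myc replicate 2 (adjusted p of 0.0115 for ISG20 and 0.033 for ASF1B), those of HLA-DOA, IER2 and TNF in 2 and that of SMYD2 in 5. All genes of these lists are named after their values were seen. LIN28B, a repressor of let-7 microRNAs, read 433, 451, 395 and 307 on the high Myc arrays and 195, 341 and 27.9 on the low Myc arrays. Its low Myc arrays spread over an order of intensity, and the difference of 1.67 ± 0.75 was not called (adjusted p = 0.344).

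The 2 arrays labelled no Myc lie outside the comparison but give a further level for stable genes. MYC read 2803 and 416 there, so the library labelled no Myc replicate 1 had more MYC signal than any low Myc array and went against its label. GAL read 44.1 and 51.4, below low Myc, AK4 436 and 390.1, just above it, and JAG2 255 and 185, within it. HNRNPLL read 25.5 and 29.8 and TLL2 75.4 and 96, within the range of high Myc. CLMN read 381 and 359.6 and KIAA0930 960.1 and 699, within or above high Myc, and FCER2 read 2590.5 and 1788, within low Myc and below it. These comparisons share the high and low Myc arrays with the one above, and no test is drawn from them here.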

How the data were processed

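Expression was measured on 9 Affymetrix arrays, of which the 4 high Myc and 3 low Myc arrays were compared. The authors deposited 1 intensity per probe set on a linear scale, summarised by RMA per the submitters' processing notes, with a version not given in the sources used here. log2 of the deposited intensity was used. Of 54675 probe sets, 41097 carried a single gene symbol in the platform annotation and were used. A gene was represented by its probe set with the highest mean log2 over the 9 arrays. Groups were compared with limma 3.58.1 in R 4.3.3 (lmFit, eBayes without trend, two-sided, 5 residual degrees of freedom) and p-values were adjusted over 19775 genes by the Benjamini-Hochberg method. The fit was tested on simulated data. The number of arrays limits the precision, and dim probe sets do not show whether a transcript was present.

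Genes named were MYC, MAX and JAG2, and stable genes: the 12 with the largest difference in each direction at a mean log2 of at least 5 in both groups, up to 6 in each direction with the lower group under 5, and up to 4 per list and direction. The members, the 46 gene lists (1598 entries, 1459 measured), the motifs and the rule were chosen with earlier results of these data known. Alternatives were repeated quantile normalization, median centring, a filter at a mean log2 of 5, probe sets reduced to their median, array weights, a prior with trend and robust estimation, all 9 arrays in 1 fit, the replicate number as a block, a threshold of 0.01 and each array left out in turn. Promoter windows were RefSeq sequence of GRCh38.p14, matched by gene.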

Additional observations from a re-analysis of the deposited data

Results flagged for a closer look

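Within the 4 high Myc arrays, 12 of 149 genes tested and 1 of 46 list means had an extreme array whose gap to its neighbour was more than 0.829 of the group's range (Dixon's criterion), where chance gives about 1 in 20 groups. High Myc replicate 2 was the extreme array for 11 of the genes and for the list mean. The gap reached 0.979 of the range for ADAMDEC1, 0.960 for ZC3H12C, 0.936 for IL1R2, 0.910 for CR2, 0.902 for OTP, 0.896 for CD86, 0.881 for REL, 0.878 for RCAN3, 0.857 for STOM, 0.856 for ACKR3 and 0.853 for DTX4. In all 11 that array was the highest of its group, and apart from STOM, which was higher in high Myc, it lay toward the low Myc values. The mean log2 of TCA cycle and glutamine enzymes was also highest there, with a gap of 0.885 of the range. For BANK1 the extreme array was high Myc replicate 4, with a gap of 0.868. The genes tested were partly named for their values on these arrays, so the count is not a count over genes at random, and the source of the pattern was not tested.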

How the results depend on the processing

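Counts of called genes moved most. Against 285 higher and 121 lower genes, the median of probe sets gave 159 higher, array weights 644 and 460, all 9 arrays in 1 fit 460 and 252, and a threshold of 0.01 gave 51 and 18. Repeated quantile normalization gave 326 lower genes. Leaving out 1 array gave 59 to 456 higher and 19 to 455 lower genes. Centring, the filter and the trended and robust prior kept both counts within 1.5 times. The replicate numbers did not pair the arrays (correlations of deviations of 0.25, 0.03 and -0.31 for numbers 1 to 3). Between high and low Myc arrays with unlike numbers those correlations ran from -0.40 to 0.44, and no other matching of the arrays was tested. With the replicate block 2 genes were higher and 0 lower by limma (1500 and 986 at an unadjusted p under 0.05), MYC differed by 2.72 and JAG2 by 2.24, both with adjusted p = 0.0962, and 2 of the 70 stable genes were called. MYC and JAG2 were called under every other alternative, and ran from 2.47 to 2.87 and from 2.09 to 2.47 when 1 array was left out. With the median of probe sets POLR3B turned to -0.0393 and SMYD2 to -0.0174. Causes were not tested. Genes near the lowest intensities have folds that are not exact, and 7 arrays limit the precision.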
